A study of Mus musculus with 4 samples.

Results

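The sterol and fatty acid synthesis genes comprised 34 genes, found by their symbols among the 31053 genes of the count files. They fell into 5 regulators of the pathway (Srebf1, Srebf2, Scap, Insig1 and Insig2), the sterol carrier Stard4, 8 genes of the mevalonate pathway from acetoacetyl-CoA to farnesyl and geranylgeranyl diphosphate, 11 genes from squalene to cholesterol and 9 genes of fatty acid synthesis, elongation and desaturation. All 34 passed the filter on low counts and were among the 13869 genes tested. The rule named genes and set no threshold on a measured value, but it was written with earlier results of these data known.

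Cells make cholesterol from acetyl-CoA by way of mevalonate, isoprenoid diphosphates and squalene, and make fatty acids from acetyl-CoA by way of malonyl-CoA. Both routes are induced by the sterol regulatory element-binding proteins SREBP1 and SREBP2, encoded by Srebf1 and Srebf2, which sit in the membrane of the endoplasmic reticulum with their escort SCAP. When membrane sterol is low, SCAP carries the SREBPs to the Golgi, where proteases release the part that enters the nucleus. When sterol is plentiful, the INSIG proteins hold SCAP back, and oxysterols in addition activate the LXR receptors, which drive sterol export. A macrophage that takes up a dying cell, a process called efferocytosis, receives the membranes and lipids of that cell.

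Single-cell RNA sequencing was performed on bone marrow (BM) macrophages in 2 experiments, each with 1 efferocytic and 1 non-efferocytic library. The cells came from male C57BL/6J mice, of 4–6 weeks by the study's general methods and of 4 weeks by its single-cell figure legend. They were grown for 4 days with M-CSF at 30 ng/mL, the cytokine that drives macrophage differentiation, in medium with 10% serum. Efferocytic BM macrophages had been given RM1 cells for 16–18 h, a mouse prostate cancer line transformed by Ras and Myc that had been killed by 30 min of UV light and stained with the dye CFSE, and were sorted as F4/80+CFSE+ cells. Non-efferocytic BM macrophages were sorted as F4/80+ cells. The study's discussion names them macrophages alone, while its figure legend calls them a non-engulfing control. Neither its methods nor the labels say whether they had stood beside RM1 cells and taken up none. Both groups were kept in 0.25% serum during this time and carried no engineered allele. The study gives a lowest number of mice per group for its macrophage experiments in general, but the animals behind each library were not given in the sources used here, and the CFSE signal marks uptake of labeled material, not its amount.

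Counts were of unique molecular identifiers (UMIs), each of which marks 1 captured mRNA molecule of a droplet. After removal of barcodes with under 200 genes, under 1000 UMIs or over 10% mitochondrial UMIs, the libraries held 6695 to 13411 cells and 101216659 to 155224183 UMIs. Cells of the efferocytic libraries were deeper, with medians of 17171 and 17475.5 UMIs against 11146 and 9600 in the non-efferocytic ones. The study counted fewer cells in each library. In the non-efferocytic library of Experiment 2, 36048 barcodes lay just under the limit of 1000 UMIs, against 1048 to 2046 in the others. How many of its 13411 barcodes held no cell was not tested, and its values per cell rest on that count. Cell Ranger's rule on UMI totals kept 10615 of them, with 2 members called higher and 10 lower. The cells of both libraries of Experiment 2 shared 118 barcodes, where a random draw would give 16.6. The other library pairs shared 14 to 23, where it would give 8.16 to 16.3. Without every cell whose barcode recurred, again 2 members were called higher and 10 lower. Levels are given as UMIs per 1000000 UMIs in cells (CPM), and are thus shares of the RNA captured. In such sums, fewer cells that express a gene and less of its RNA per cell cannot be told apart. The 10 macrophage markers, none of them at 0, summed to 41040 and 32867 CPM in Experiment 1 (non-efferocytic, then efferocytic) and to 35351 and 24870 CPM in Experiment 2. Most of each sum was 1 gene, Lyz2, at 32090 and 25872 CPM and then at 27532 and 18674 CPM. The T and B cell markers summed to 3.09 to 5.38 CPM in all 4 libraries.

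SREBPs act through sterol regulatory elements, and the promoters of 27 of the 34 members were searched for 1 form of that element. The sequences below are the 250 bases before the RefSeq start site (build GRCm38.p6), 5′ to 3′ on the strand of the gene. They were chosen to cover the single sterol element found and genes that were called lower (Mvk, Idi1, Insig1 and Fads2), higher (Acly) or not at all (Hmgcs1). Capitals mark the core of the sterol regulatory element, TCACNCCAC, or the core of the NF-Y element, CCAAT, on either strand (ATTGG where the reverse strand holds it). NF-Y is a factor that binds DNA beside SREBPs.
Hmgcs1 (chr13:119690101-119690350, plus strand): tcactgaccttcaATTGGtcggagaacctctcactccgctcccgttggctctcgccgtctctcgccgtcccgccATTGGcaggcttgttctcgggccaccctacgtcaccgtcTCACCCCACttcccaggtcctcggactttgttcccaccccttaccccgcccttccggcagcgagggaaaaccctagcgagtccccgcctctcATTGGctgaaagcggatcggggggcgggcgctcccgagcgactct
Mvk (chr5:114444019-114444268, plus strand): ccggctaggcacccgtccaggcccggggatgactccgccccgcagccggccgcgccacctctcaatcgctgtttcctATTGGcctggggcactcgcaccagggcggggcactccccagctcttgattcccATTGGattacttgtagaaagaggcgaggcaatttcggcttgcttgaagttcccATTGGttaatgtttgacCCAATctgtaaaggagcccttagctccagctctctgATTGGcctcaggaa
Idi1 (chr13:8885356-8885605, plus strand): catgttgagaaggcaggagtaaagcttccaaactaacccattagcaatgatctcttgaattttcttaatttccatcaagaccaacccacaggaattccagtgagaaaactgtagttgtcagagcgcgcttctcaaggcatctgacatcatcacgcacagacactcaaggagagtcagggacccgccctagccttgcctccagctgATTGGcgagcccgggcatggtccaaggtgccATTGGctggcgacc
Insig1 (chr5:28071162-28071411, plus strand): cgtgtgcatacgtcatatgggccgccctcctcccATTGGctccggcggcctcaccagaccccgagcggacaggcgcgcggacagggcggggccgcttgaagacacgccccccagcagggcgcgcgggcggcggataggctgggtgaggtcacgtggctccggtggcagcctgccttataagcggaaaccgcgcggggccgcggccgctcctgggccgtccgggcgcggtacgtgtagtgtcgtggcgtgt
Acly (chr11:100528001-100528250, minus strand): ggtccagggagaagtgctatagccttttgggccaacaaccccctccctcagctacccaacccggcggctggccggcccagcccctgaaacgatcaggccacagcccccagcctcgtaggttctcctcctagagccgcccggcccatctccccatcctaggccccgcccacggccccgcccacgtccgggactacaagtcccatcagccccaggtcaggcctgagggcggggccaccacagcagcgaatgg
Fads2 (chr19:10101504-10101753, minus strand): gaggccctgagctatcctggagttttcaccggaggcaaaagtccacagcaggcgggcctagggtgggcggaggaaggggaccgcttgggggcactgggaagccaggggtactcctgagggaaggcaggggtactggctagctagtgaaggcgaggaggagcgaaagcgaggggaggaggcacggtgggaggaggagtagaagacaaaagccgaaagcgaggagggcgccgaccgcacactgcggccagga

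Hmgcs1 was the only member with the sterol element core in its window, 128 bases before the start, and it held 3 NF-Y cores besides. The Mvk window held 5 NF-Y cores, that of Idi1 held 2 and that of Insig1 held 1. The Acly and Fads2 windows held neither element. Over the 300 bases that also take in the first 50 bases of the transcript, 22 of the 27 members in the promoter table (81.5%) had an NF-Y core, compared with 41.1% of 27025 genes. The sterol element core as spelled here was in 1 of 27 members (3.70%) and in 1.44% of all genes. Matches describe these letters in this window only. The promoters of Scd1, Stard4, Sqle, Fads1, Fdps, Fdft1 and Scd2 were not in the table.

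With TMM scaling, 10 members were lower and 2 were higher in efferocytic than in non-efferocytic BM macrophages. TMM rescales each library total, here by factors of 0.938 to 1.04. On plain library totals, that is as unscaled shares of the RNA captured, edgeR called 13 lower and 0 higher. The 10 were Insig1, 5 mevalonate enzymes (Mvk, Pmvk, Mvd, Idi1 and Fdps), 3 enzymes of the later sterol steps (Fdft1, Cyp51 and Sc5d) and the fatty acid desaturase Fads2. The 2 higher genes were Acly, which makes cytosolic acetyl-CoA, and the fatty acid elongase Elovl5. The other 22 were not called. The calls are those of edgeR's quasi-likelihood test over all genes with the experiment as a block and an adjusted p under 0.05.

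Among all genes tested, 38.9% were called, 19.9% higher and 19.0% lower, so that the members' 5.88% higher lay below the background and their 29.4% lower lay above it. The median log2 fold change was -0.04 over the members and -0.02 over all genes tested. Both efferocytic libraries lay below both non-efferocytic libraries in 17 members, against a background of 44.7% of genes, and above both in 3, against 22.2%. Groups that do not overlap, as given for single genes below, are thus common among all genes. CPM was lower in the efferocytic library in 30 of 34 members in Experiment 1 (all genes, 66.4%), in 19 in Experiment 2 (56.9%) and in 19 in both (51.8%). It was higher in both in 4 (28.5%). With 2 libraries a group, p-values measure only the spread between these libraries. Without the block and without the non-efferocytic library of Experiment 1 or of Experiment 2, edgeR called 0 members in either direction (at an unadjusted p under 0.05, 0 higher and 5 or 6 lower). Without the efferocytic library of Experiment 1 it called 3 higher and 4 lower, and without that of Experiment 2 it called 0 higher (1 unadjusted) and 7 lower. Without the efferocytic library of Experiment 1 the changes of Insig1 (-0.39), Idi1 (-0.44), Fdps (-0.19), Cyp51 (-0.28) and Sc5d (-0.20) were smaller by over 1.5 times than with all libraries, and of these 5 only Idi1 was called. Without that of Experiment 2 Fdps was at -0.59 and was called.

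Another scale moved the members together with all other genes. Scaled to UMIs per cell, which keeps the greater depth of the efferocytic cells, the median of all genes moved to 0.60 and that of the members to 0.57. Under this scaling 16 members were called higher and 1, Fads2, lower. Of the 10 lower members, Idi1, Fdft1 and Fads2 stayed below 0 and Insig1, Mvk, Pmvk, Mvd, Fdps, Cyp51 and Sc5d turned positive without a call. This scale shifts all genes by nearly the same amount, so that values relative to the median of all genes, -0.33 (Mvd) to -2.02 (Fads2) for the 10, restate those of TMM. With library totals in place of TMM the median of all genes was -0.12, and 13 members were lower and 0 higher (edgeR; 1 higher at an unadjusted p under 0.05). The 13 were the 10 with Srebf2, Stard4 and Fads1. Signs and calls below are those of the TMM scale, unless another scale is named. CPM values carry no TMM scaling, so that a fitted change can lie above both CPM ratios. Scap, for example, was fitted at 0.05 with CPM log2 ratios of -0.11 and -0.006.

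**Figure D1:**
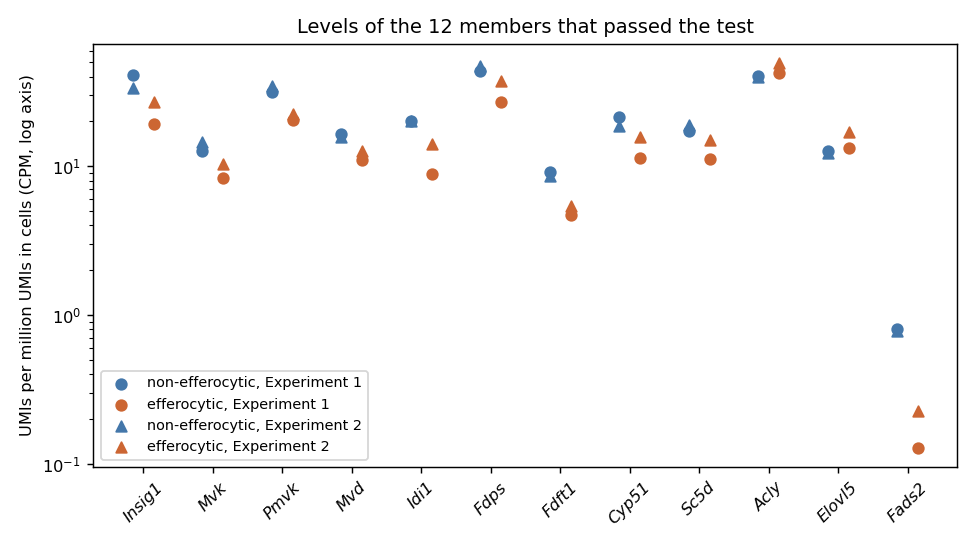
CPM on a log axis of the 12 members that passed the test, 1 point per library, blue for non-efferocytic and orange for efferocytic, circles for Experiment 1 and triangles for Experiment 2. In shares of RNA, both orange points lie below both blue points in the 10 lower members, and in Acly and Elovl5 both lie above, by the least in Experiment 1 (42.6 against 40.5 CPM for Acly).

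Among the regulators, Insig1, which retains SCAP in the endoplasmic reticulum and is itself a target of SREBPs, was lower, while the SREBP genes, Scap and Insig2 were not called. Insig1 (ENSMUSG00000045294, chr5:28071363-28078662, plus strand) was at 41.3 CPM in the non-efferocytic and 19.4 CPM in the efferocytic library of Experiment 1, and at 33.7 and 27.1 CPM in Experiment 2. The groups did not overlap, and the efferocytic library of Experiment 1 was the lowest of the 4. The fitted log2 fold change was -0.59 ± 0.15 (SE; edgeR, adjusted p = 0.0144). Srebf2, whose product drives the sterol genes in particular, was at 35.0 and 23.3 CPM in Experiment 1 and at 32.0 and 30.4 CPM in Experiment 2. It was thus lower in the efferocytic library of each pair, and its change of -0.22 ± 0.11 was not called (edgeR, adjusted p = 0.135).

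Srebf1, whose product leans toward the fatty acid genes, was at 18.3 and 17.5 CPM in Experiment 1 and at 21.3 and 21.7 CPM in Experiment 2, so that it differed more between experiments than between groups. Scap was at 14.5 to 15.7 CPM in the 4 libraries. Insig2, the INSIG gene that is not an SREBP target in most cells, was at 21.6 to 23.9 CPM, with overlapping groups. Fitted changes of these 3 genes were 0.05 to 0.12 (edgeR, adjusted p of 0.245 to 0.658). Of the regulators, 0 were called higher by edgeR, 0 at an unadjusted p under 0.05 and 0 by DESeq2, while on the scale of UMIs per cell edgeR called Srebf1 (0.71), Scap (0.67) and Insig2 (0.74) higher and none lower. The 20.0% lower compares with 19.0% of all genes tested. With library totals Srebf2 was called lower as well (edgeR, adjusted p = 0.0259), and with the filter at a mean of 10 CPM 2 of the 5 regulators were lower. Stard4, which carries sterol between membranes through the cytosol, was at 13.8 and 8.54 CPM in Experiment 1 and at 13.6 and 12.9 CPM in Experiment 2. Its change of -0.27 ± 0.13 was not called (edgeR, adjusted p = 0.129).

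The mevalonate pathway held the largest share of lower calls: 5 of 8 genes were lower and 0 were higher, with a median log2 fold change of -0.37 that turned to 0.25, below the 0.60 of all genes, on the scale of UMIs per cell. The 62.5% lower and 0% higher compare with 19.0% and 19.9% of all genes tested. No mevalonate gene was higher at an unadjusted p under 0.05 in edgeR, and none was called higher by DESeq2, which called 4 lower. Without the block 1 was lower, and with 10% of the UMIs removed as free RNA 2 were lower. On the scale of UMIs per cell 1 was called higher and 0 lower. The summed level of the 8 genes was 179 and 121 CPM in Experiment 1 and 188 and 151 CPM in Experiment 2. The first 2 genes of the route were not called. Acat2, which joins acetyl-CoA units, was at 3.59 and 3.04 CPM in Experiment 1 and at 3.92 and 4.24 CPM in Experiment 2. Hmgcs1, which makes HMG-CoA and holds the sterol element printed above, was at 38.3 and 30.6 CPM in Experiment 1 and at 36.6 and 36.1 CPM in Experiment 2. Its groups did not overlap, but its change of -0.06 ± 0.08 was within the error (edgeR, adjusted p = 0.578).

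The 3 enzymes that turn mevalonate into isopentenyl diphosphate were all lower. Mevalonate kinase, Mvk (ENSMUSG00000041939, chr5:114444269-114460591, plus strand), was at 12.7 and 8.35 CPM in Experiment 1 and at 14.5 and 10.4 CPM in Experiment 2 (non-efferocytic first in each pair), a change of -0.44 ± 0.09 (edgeR, adjusted p = 0.00699). Phosphomevalonate kinase, Pmvk (ENSMUSG00000027952, chr3:89454541-89469013, plus strand), was at 31.4 and 20.4 CPM and at 34.6 and 22.4 CPM, a change of -0.52 ± 0.08 (edgeR, adjusted p = 0.00189). The 2 experiments gave Pmvk nearly the same ratio, 0.652 and 0.646. Mevalonate diphosphate decarboxylase, Mvd (ENSMUSG00000006517, chr8:122433601-122443422, minus strand), was at 16.5 and 11.0 CPM and at 15.8 and 12.7 CPM, a change of -0.34 ± 0.09 (edgeR, adjusted p = 0.0190). In none of the 3 did the groups overlap, and 44.7% of all genes tested lay lower in this way. The call of Mvk was lost without the block, and that of Mvd without the block, with DESeq2 and with 10% of the UMIs removed as free RNA.

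Isopentenyl diphosphate isomerase, Idi1 (ENSMUSG00000058258, chr13:8885501-8892451, plus strand), had the largest fitted change of the sterol enzymes over all 4 libraries. It was at 20.0 and 20.3 CPM in the non-efferocytic libraries and at 8.90 CPM (Experiment 1) and 14.1 CPM (Experiment 2) in the efferocytic ones, a change of -0.73 ± 0.13 (edgeR, adjusted p = 0.00378). The efferocytic libraries thus differed from each other far more than the non-efferocytic ones did. Fdft1 was close to Idi1 at -0.71 ± 0.11. With 1 library left out the change of Idi1 ran from -1.03 to -0.44 and that of Fdft1 from -0.77 to -0.64, so that their order was not settled. Farnesyl diphosphate synthase, Fdps (ENSMUSG00000059743, chr3:89093588-89101959, minus strand), was at 43.4 and 27.2 CPM in Experiment 1 and at 47.2 and 37.7 CPM in Experiment 2, a change of -0.39 ± 0.09 (edgeR, adjusted p = 0.0104). The last 300 bases of its transcript match 5 other annotated genes at 95% identity or more over at least 90 bases, of which 1 is in the count files, Gm43738, at no more than 0.00988 CPM. Gm43738 overlaps Fdps on the same strand, and how many reads were set aside for matching several places or genes was not tested. The branch toward geranylgeranyl diphosphate, Ggps1, was at 11.9 to 15.0 CPM and was not called (-0.06 ± 0.09).

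**Figure D2:**
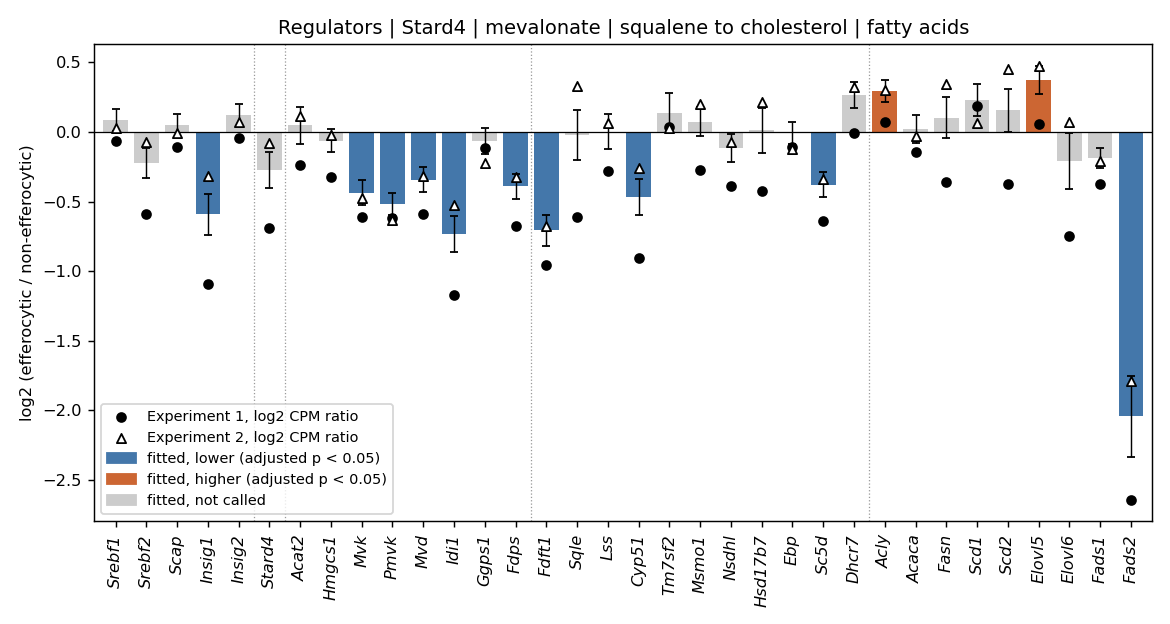
Fitted log2 fold change of each of the 34 members in pathway order (bars, with SE; blue lower, orange higher, grey not called) and log2 ratio of CPM within Experiment 1 (circles) and Experiment 2 (triangles); dotted lines part the 5 groups. On the TMM scale 6 of the 10 blue bars lie between Mvk and Fdft1, and most circles lie below the triangles. The bars carry the TMM scaling, which the CPM ratios do not, and so can lie above both points.

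From squalene to cholesterol, 3 of 11 genes were lower and 0 were higher, with a median log2 fold change of -0.01 (0.61 on the scale of UMIs per cell). The 27.3% lower compares with 19.0% of all genes tested. At an unadjusted p under 0.05 edgeR gave 1 of the 11 higher, Dhcr7, and DESeq2 called 0 higher and 3 lower. The summed level was 201 and 161 CPM in Experiment 1 and 208 and 205 CPM in Experiment 2, so that the sums of the pair differed more in Experiment 1. Squalene synthase, Fdft1 (ENSMUSG00000021273, chr14:63145150-63179578, minus strand), the first enzyme committed to sterols, was at 9.17 and 4.72 CPM in Experiment 1 and at 8.66 and 5.42 CPM in Experiment 2. Its change was -0.71 ± 0.11 (edgeR, adjusted p = 0.00220). Exons of Fdft1 overlap those of Ctsb on the opposite strand, a gene at 7659 to 10806 CPM that was higher in the efferocytic library of each pair.

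Lanosterol demethylase, Cyp51 (ENSMUSG00000001467, chr5:4081145-4104746, minus strand), was at 21.4 and 11.4 CPM in Experiment 1 and at 18.7 and 15.7 CPM in Experiment 2, a change of -0.47 ± 0.13 (edgeR, adjusted p = 0.0232). The sterol C5-desaturase, Sc5d (ENSMUSG00000032018, chr9:42251595-42264256, minus strand), was at 17.4 and 11.2 CPM and at 18.9 and 14.9 CPM, a change of -0.38 ± 0.09 (edgeR, adjusted p = 0.0135). The groups overlapped in neither gene, and 44.7% of all genes tested lay lower in this way. Exons of Cyp51 overlap those of Akap9 on the opposite strand.

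The other 8 genes of these steps were not called, and in 5 of them the experiments went opposite ways. Squalene epoxidase, Sqle, a rate-limiting enzyme of the route, was at 10.9 and 7.13 CPM in Experiment 1 and at 10.7 and 13.4 CPM in Experiment 2. The lowest and the highest of the 4 values were thus both efferocytic. Msmo1, a sterol C4-methyl oxidase, was likewise at 40.4 and 33.5 CPM and then at 40.7 and 46.8 CPM. Hsd17b7, a sterol ketone reductase, was at 3.20 and 2.38 CPM and at 3.18 and 3.68 CPM. Lanosterol synthase, Lss, was at 3.87 to 5.08 CPM with the same crossing.

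Dhcr7, which makes cholesterol from 7-dehydrocholesterol, came closest to a higher call: it was at 16.9 and 16.8 CPM in Experiment 1 and at 15.0 and 18.8 CPM in Experiment 2 (0.27 ± 0.09, edgeR, adjusted p = 0.0517). With edgeR it was called higher with RLE size factors (adjusted p = 0.0470), with no gene filter (0.0356), with at most 5% mitochondrial UMIs (0.0477) and on the scale of UMIs per cell (0.00414), and not under the other alternatives, where the adjusted p was at most 0.430. Nsdhl, a sterol dehydrogenase, was at 11.2 and 8.54 CPM and at 11.6 and 11.0 CPM. The sterol isomerase Ebp was at 58.9 to 73.9 CPM, with overlapping groups and a change of -0.01 ± 0.08. Tm7sf2, a sterol C14-reductase, was at 2.25 to 2.34 CPM in all 4 libraries, and its exons overlap Vps51 on the same strand.

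Taking the 19 sterol enzymes from Acat2 to Dhcr7 as 1 group, 8 were lower and 0 higher (edgeR; 1 higher at an unadjusted p under 0.05, 0 by DESeq2). The 42.1% lower and 0% higher compare with 19.0% and 19.9% of all genes tested. On the scale of UMIs per cell 7 were called higher and 0 lower (0 lower at an unadjusted p under 0.05, edgeR), without the block 2 were lower, and with 10% of the UMIs removed as free RNA 3 were lower. Their summed level was 380 and 282 CPM in Experiment 1 and 396 and 356 CPM in Experiment 2. The non-efferocytic sums were close to each other, both efferocytic sums lay below them, and the gap in Experiment 1 was the wider.

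The fatty acid genes did not move in 1 direction: 2 of 9 were higher, 1 was lower and 6 were not called, with a median log2 fold change of 0.10 (0.72 on the scale of UMIs per cell and -0.00 with library totals). The 22.2% higher and 11.1% lower compare with 19.9% and 19.0% of all genes tested. Their summed level was 153 and 135 CPM in Experiment 1 and 156 and 176 CPM in Experiment 2, lower in the efferocytic library of the first pair and higher in that of the second. ATP citrate lyase, Acly (ENSMUSG00000020917, chr11:100476353-100528000, minus strand), was at 40.5 and 42.6 CPM and at 40.1 and 49.3 CPM, a change of 0.29 ± 0.08 (edgeR, adjusted p = 0.0203). Elovl5 (ENSMUSG00000032349, chr9:77917364-77984519, plus strand), which elongates polyunsaturated fatty acids, was at 12.8 and 13.3 CPM and at 12.3 and 17.1 CPM, a change of 0.37 ± 0.10 (edgeR, adjusted p = 0.0223). In both genes the groups did not overlap, as in the 22.2% of all genes tested that lay higher in this way. The rise in Experiment 1 was small, 1.05-fold and 1.04-fold. Both calls were lost without the block, with DESeq2, with library totals in place of TMM, with the filter at a mean of 10 CPM and with 10% of the UMIs removed as free RNA. With no block and the efferocytic library of Experiment 2 left out, Elovl5 was at 0.23.

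Fads2 (ENSMUSG00000024665, chr19:10062765-10101746, minus strand), the Δ6-desaturase that starts the making of long polyunsaturated fatty acids, had the largest change of all members and the lowest level. It had 81 and 108 UMIs in the non-efferocytic libraries, or 0.800 and 0.781 CPM, and 16 and 35 UMIs in the efferocytic ones, or 0.128 CPM (95% exact Poisson interval 0.0732 to 0.208) and 0.225 CPM (0.157 to 0.314). The intervals cover counting error only and did not reach the non-efferocytic levels. The change was -2.04 ± 0.29 (edgeR, adjusted p = 0.00152). Barcodes with at most 100 UMIs, which hold mostly free RNA, gave Fads2 a mean of 0.269 CPM in the efferocytic libraries. These barcodes held 5508902 and 5727217 UMIs in all, so that the mean rests on a handful of Fads2 UMIs. The level of Fads2 in efferocytic cells was not above this mean, but so few UMIs cannot fix the background. Its call was lost with 10% of the UMIs removed as free RNA, where the change was -2.22 (edgeR, adjusted p = 0.0511). Its neighbor Fads1, the Δ5-desaturase of a later step, was at 51.5 and 39.7 CPM and at 48.9 and 42.2 CPM. The groups did not overlap, and the change of -0.19 ± 0.07 was not called (edgeR, adjusted p = 0.0822).

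The remaining fatty acid genes were not called. Fasn, the synthase itself, was at 9.79 and 7.62 CPM in Experiment 1 and at 9.17 and 11.6 CPM in Experiment 2, and Scd2, a Δ9-desaturase, was at 24.1 and 18.6 CPM and then at 27.5 and 37.7 CPM. In each of these 2 genes the lowest and the highest value were efferocytic. Acaca, which makes malonyl-CoA, was at 6.48 to 7.58 CPM and its change was 0.02 ± 0.10. Scd1, another Δ9-desaturase, was at 4.69 and 5.35 CPM in Experiment 1 and at 7.67 and 8.03 CPM in Experiment 2, so that the experiments differed more than the groups. Elovl6, which elongates saturated fatty acids, was at 2.01 CPM in both non-efferocytic libraries and at 1.19 and 2.11 CPM in the efferocytic ones.

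The 2 experiments differed in size for most members. The ratio of efferocytic to non-efferocytic CPM was lower in Experiment 1 than in Experiment 2 in 29 of 34 members, and in 64.4% of all genes tested. The median log2 ratio over the members was -0.37 in Experiment 1 and -0.02 in Experiment 2, compared with -0.16 and -0.08 over all genes. For the 10 lower members the ratio ran from 0.160 (Fads2) to 0.666 (Mvd) in Experiment 1 and from 0.289 (Fads2) to 0.837 (Cyp51) in Experiment 2. Among the lower members Insig1 (0.470 and 0.803), Cyp51 (0.534 and 0.837) and Idi1 (0.444 and 0.696) are examples of wide gaps, while Pmvk had next to none. In 11 members the ratios lay on opposite sides of 1, as in Sqle (0.656 and 1.25), Scd2 (0.772 and 1.37) and Fasn (0.779 and 1.27). With 1 library per group in each experiment, the difference between experiments was not tested.

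Sterol synthesis is a route that most cell types use, so that no cell type of the sample was taken to lack it as a measure of free RNA. When each cell was thinned to 5000 UMIs, which left out 1099 and 544 shallower cells in Experiment 1 and 3404 and 505 in Experiment 2 (non-efferocytic and efferocytic), a cell held a mean of 1.81 sterol enzyme UMIs in the non-efferocytic and 1.42 in the efferocytic library of Experiment 1. The means were 1.88 and 1.76 in Experiment 2, and the ratios were 0.781 and 0.936. Cells with no sterol enzyme UMI made up 21.4% and 27.7% in Experiment 1 and 19.7% and 22.0% in Experiment 2. Without thinning these shares were 10.3% and 7.71% and then 17.0% and 5.01%, the other way round. Thinning both set the cells to 1 depth and left out the shallower ones, and these steps were not told apart. Mean fatty acid enzyme UMIs were 0.748 and 0.703 in Experiment 1 and 0.789 and 0.921 in Experiment 2.

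**Figure D3:**
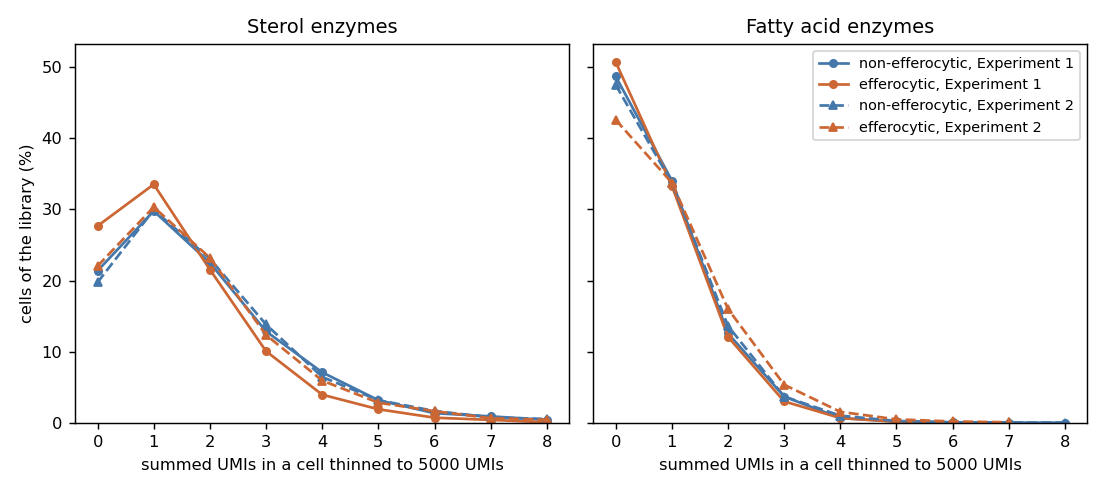
Share of cells (%) by their summed UMIs of the 19 sterol enzymes (left) and the 9 fatty acid enzymes (right) after thinning to 5000 UMIs, 1 line per library, up to 8 UMIs. The line of the efferocytic library of Experiment 1 stands apart at the left, with 27.7% of cells at 0 sterol enzyme UMIs, and that of Experiment 2 stands apart at the right, with 42.6% at 0 fatty acid enzyme UMIs against 47.5% to 50.7% in the others.

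The sterol enzymes were also summed by the number of cycling gene UMIs in a cell, a split that moves with depth (medians of 9673.5, 11086 and 13197 UMIs per cell with 0, 1 and 2 or more in the non-efferocytic library of Experiment 1) and does not part dividing from other cells cleanly, since free RNA holds these genes too (Mki67 at 23.0 CPM in barcodes of at most 100 UMIs and 20.5 CPM in cells of the efferocytic libraries). In cells with 0, with 1 and with 2 or more UMIs of 10 cycling genes, the 19 sterol enzymes summed to 382, 375 and 381 CPM in the non-efferocytic and to 284, 285 and 278 CPM in the efferocytic library of Experiment 1. The sums were 396, 385 and 404 CPM and 359, 363 and 347 CPM in Experiment 2. In each of the 3 classes the efferocytic library of a pair lay below the non-efferocytic one. The cycling genes themselves summed to 236 and 190 CPM in Experiment 1 and to 267 and 279 CPM in Experiment 2, and 4 of the 10 were called higher and 2 lower.

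Free RNA held the lower members at a higher share than the efferocytic cells did. In barcodes with at most 100 UMIs of the efferocytic libraries, the mean level of each of the 10 lower members was above its mean level in cells, as it was in 24 of all 34 members, in 71.6% of all genes called lower and in 50.7% of all genes tested. Idi1 was at 16.6 CPM there against 11.5 CPM in cells, Insig1 at 28.0 against 23.2 CPM, Pmvk at 31.9 against 21.4 CPM and Cyp51 at 21.1 against 13.5 CPM, while Mvk was at 9.70 against 9.38 CPM. With 10% of the UMIs of each library removed in proportion to these profiles, Mvk, Pmvk and Fdft1 were called lower and the other 7 were not, at log2 fold changes of -0.37 (Mvd) to -2.22 (Fads2) over the 10. Without the block, Pmvk, Fdft1 and Fads2 were called lower and the other 7 were not. The part of free RNA in the differences was not tested further.

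Markers of cell types and MHC class II genes moved with the groups as well. The 9 neutrophil markers were all lower, with none at 0 and sums of 3046 and 953 CPM in Experiment 1 and 3339 and 705 CPM in Experiment 2. Of 6 fibroblast markers 3 were lower, with sums of 144 and 46.0 CPM and then 120 and 52.3 CPM. The 4 MHC class II genes were all lower, with sums of 486 and 38.5 CPM and then 898 and 95.1 CPM. Epithelial markers that RM1 cells could bring summed to 0.120 to 0.573 CPM in Experiment 1, where Krt8, Cldn3 and Cldn4 were at 0, and to 11.4 CPM in the non-efferocytic and 9.37 CPM in the efferocytic library of Experiment 2. Macrophage markers were lower in 5 and higher in 1 of 10. RM1 cells are described as fibroblast-like, so that epithelial markers are a weak gauge of their RNA. Cells past a limit for each list were left out in turn, with 10 members called lower and 2 higher each time. The limits were 1% of UMIs for neutrophil markers (which kept 99.1% to 99.7% of the cells of a library), 3 UMIs for fibroblast markers (98.8% to 99.7%), 1 UMI for epithelial markers (99.7% to 99.8%), 5 UMIs for MHC class II genes (84.9% to 97.5%) and 2 UMIs for cycling genes (68.9% to 72.0%). Cells with fewer marker UMIs stayed in, so that these counts do not show the members without all marker RNA.

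Among genes listed for the transport, cleavage and degradation steps around SREBPs, more were called higher than lower. The list held 19 genes of the vesicle machinery that exports SCAP among other cargo, the SREBP proteases and the degradation of INSIG and of the sterol-controlled enzymes. Of these, 11 were higher and 1 was lower, with a median log2 fold change of 0.27, where 19.9% of all genes tested were higher. With library totals in place of TMM 6 were higher and 1 lower (median 0.17), and on the scale of UMIs per cell 17 were higher and 0 lower. Sec24d, a cargo adaptor of the COPII vesicles that carry SCAP, was at 16.7 and 21.9 CPM in Experiment 1 and at 15.9 and 26.3 CPM in Experiment 2 (0.67 ± 0.09, edgeR, adjusted p = 0.00124). Erlin2, which takes part in degradation at the endoplasmic reticulum, was at 14.1 and 19.1 CPM and at 13.0 and 19.5 CPM (0.62 ± 0.08, edgeR, adjusted p = 0.00110). Sec23b, a COPII coat subunit, rose by 0.58 ± 0.07 (edgeR, adjusted p = 0.000962). Of the SREBP proteases, named after their values were seen, Mbtps2 was higher (0.32 ± 0.09, edgeR, adjusted p = 0.0225). Mbtps1 was not called (0.01 ± 0.08, edgeR, adjusted p = 0.895). The lower gene was Rnf145, a ubiquitin ligase and LXR target that acts on SCAP, at 23.7 and 13.0 CPM and at 20.7 and 12.3 CPM (-0.70 ± 0.08, edgeR, adjusted p = 0.000612).

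Of 14 genes that use isoprenoids for dolichol, ubiquinone or protein prenylation, 5 were higher and 1 was lower, with a median of 0.21 (3 and 1 with library totals, median 0.10, and 13 and 0 on the scale of UMIs per cell, median 0.83). The 35.7% higher compares with 19.9% of all genes tested. Nus1, a subunit of the dolichol-chain synthase, was at 61.2 and 79.1 CPM and at 56.1 and 87.9 CPM (0.62 ± 0.08, edgeR, adjusted p = 0.00129). Coq2 and Pdss1, both of ubiquinone synthesis, changed by 0.61 and 0.55, and the prenyl-protein protease Zmpste24 by 0.41. Srd5a3 (0.22) was the fifth higher gene and the prenyltransferase subunit Pggt1b (-0.32) the lower one, names chosen once their values were seen, and Pggt1b turned positive on the scale of UMIs per cell. The enzymes of the shared precursor, Mvk to Fdps, were lower in the same libraries, as given above.

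Of 28 other genes of fatty acid metabolism, 23 were tested, 10 were higher and 4 were lower, with a median of 0.27 (7 and 5 with library totals, median 0.16, and 14 and 0 on the scale of UMIs per cell, median 0.89). All genes tested were higher in 19.9% and lower in 19.0%. Hsd17b12, the ketoacyl reductase of fatty acid elongation, was at 38.4 and 55.1 CPM and at 38.3 and 75.4 CPM (0.86 ± 0.10, edgeR, adjusted p = 0.000649). Mecr, the reductase of mitochondrial fatty acid synthesis, changed by 0.79 ± 0.08. Acss2, which makes acetyl-CoA from acetate and is an SREBP target, was at 9.33 and 5.31 CPM and at 9.36 and 3.27 CPM (-1.06 ± 0.18, edgeR, adjusted p = 0.00292). Fads3, a desaturase beside Fads1 and Fads2 on chromosome 19, was at 2.98 and 1.38 CPM and at 2.99 and 1.69 CPM (-0.86 ± 0.15, edgeR, adjusted p = 0.00344). Hacd4 and Mlxipl, named after their values were seen, were the other lower genes, and Hacd4 turned positive on the scale of UMIs per cell. Elovl3, Elovl4, Scd3, Scd4 and Thrsp were too low to test.

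Of 13 genes of sterol storage, exit and LXR signaling, 5 were higher and 3 lower, with a median of 0.09 (5 and 4 with library totals, median -0.02, and 8 and 1 on the scale of UMIs per cell, median 0.71), again beside 19.9% and 19.0% of all genes tested. Nr1h3, which encodes LXRα, was at 17.0 and 35.8 CPM and at 19.0 and 35.7 CPM (1.10 ± 0.09, edgeR, adjusted p = 0.000141). Cyp27a1, which makes 27-hydroxycholesterol, was at 56.0 and 21.9 CPM and at 47.9 and 13.4 CPM (-1.49 ± 0.13, edgeR, adjusted p = 0.000167). Nceh1, which frees cholesterol from its esters, and Soat1, which forms the esters, were higher by 0.56 and 0.50. The remaining calls, named after their values were seen, were Abcg1 and Lipa (higher) and Abca1 and Scarb1 (lower, but positive on the scale of UMIs per cell).

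**Figure D4:**
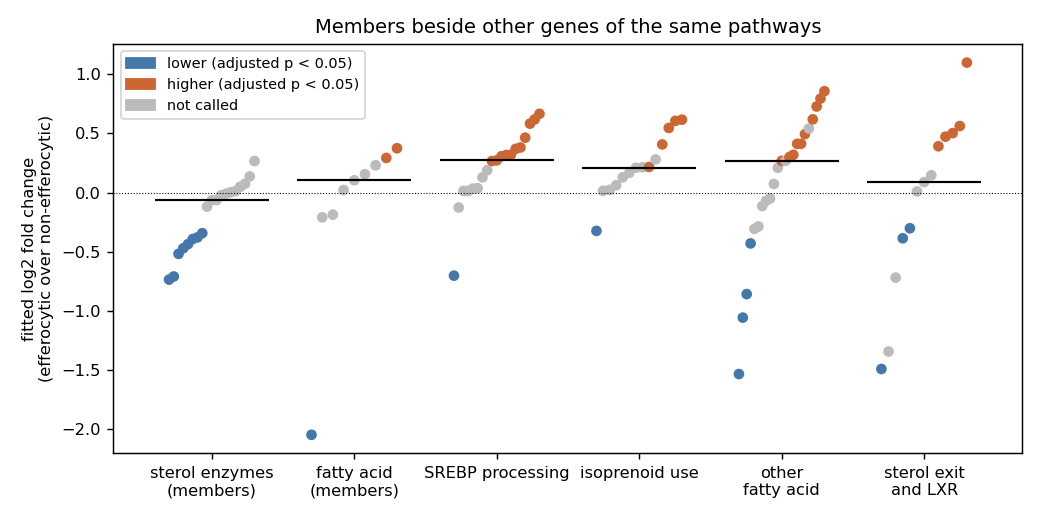
Fitted log2 fold changes of single genes (points, blue lower, orange higher, grey not called) in the sterol enzymes and fatty acid genes among the members and in 4 lists of other genes of the same pathways, with the median of each list as a line, on the TMM scale. The medians lie at -0.06 for the 19 sterol enzymes and at 0.10 for the fatty acid members, and at 0.27, 0.21, 0.27 and 0.09 for the other lists from left to right.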

How the data were processed

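Single-cell 3′ RNA libraries (10x Genomics) of 4 samples were analysed. The authors deposited UMI counts per gene and barcode for each library, made with Cell Ranger on mm10. The version is 3.0.0 in the submitters' processing notes and in the file headers of Experiment 1, and 3.1.0 in those of Experiment 2. A barcode counted as a cell from 200 genes and 1000 UMIs upward if mitochondrial UMIs made up no more than 10%. Counts were summed per library, and all genes that passed edgeR's filter were fitted with TMM scaling, the experiment as a block and Benjamini-Hochberg adjustment (edgeR 4.0.16, limma 3.58.1, DESeq2 1.42.0, R 4.3.3, Python 3.11.15). Scripts were tested on simulated data. The labels name the experiment of each library, and libraries of 1 experiment deviated together (correlation 0.787 over 7098 genes), so that the experiment was taken as the pair. Near copies were sought with BLAST 2.17.0. The clustering and integration of the study and its own tests were not used, and no doublet caller was run. Instead, the deepest 5% of cells were left out as an alternative. The depth of each library (117155896 to 178218821 UMIs) limits genes of few UMIs, as given for Fads2. The 34 members and all lists were chosen with earlier results of these data known. All 34 members are named, with the 4 largest called changes of each other pathway list at a mean of at least 1 CPM, while marker lists are given by sums.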

Additional observations from a re-analysis of the deposited data

How the results depend on the processing

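The calls of 2 members higher and 10 lower, and of 31 and 9 genes of the other pathway lists, were computed anew under other choices. The alternatives without shared barcodes, without neutrophil-marker cells and without fibroblast-marker cells were chosen after seeing the data. Without the replicate block, that is without the pairing by experiment, edgeR called 0 members higher (2 at an unadjusted p under 0.05) and 3 lower (11 unadjusted), and 18 and 3 of the other genes. DESeq2 called 0 members higher (2 unadjusted) and 9 lower. With library totals in place of TMM, edgeR called 0 members higher (1 unadjusted) and 13 lower, and with a filter at a mean of 10 CPM, which left 24 members to test, 0 higher (2 unadjusted) and 11 lower. Cells thinned to 5000 UMIs gave 4 members higher. RLE size factors, no gene filter, at most 5% mitochondrial UMIs and the loss of the deepest 5% of cells each gave 3. With 10% of the UMIs removed as free RNA, edgeR called 0 members higher (1 unadjusted) and 3 lower (11 unadjusted), and 14 and 2 of the other genes.

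Scaled to UMIs per cell, edgeR called 16 members higher and 1 lower and 52 and 1 of the other genes, with a members' median of 0.57. In 16 members the log2 fold change turned positive. Of those called lower the values were 0.023 for Insig1, 0.18 for Mvk, 0.10 for Pmvk, 0.28 for Mvd, 0.23 for Fdps, 0.15 for Cyp51 and 0.24 for Sc5d, Ebp was called higher at 0.61, and the others, called on neither scale, were at 0.39 for Srebf2, 0.34 for Stard4, 0.55 for Hmgcs1, 0.56 for Ggps1, 0.59 for Sqle, 0.50 for Nsdhl, 0.41 for Elovl6 and 0.43 for Fads1. This scaling adds the difference in depth per cell to every gene. The other sign changes were of members not called under either choice, most of them near 0. The changed values were 0.028 for Sqle without the block, -0.018 for Srebf1, -0.057 for Scap, -0.057 for Acat2, -0.10 for Lss, -0.032 for Msmo1, -0.095 for Hsd17b7, -0.085 for Acaca and -0.0031 for Fasn with library totals, 0.0082 for Ebp with no gene filter, -0.0068 for Srebf1, -0.046 for Scap and -0.021 for Msmo1 with the filter at 10 CPM, -0.0021 for Lss and -0.00078 for Hsd17b7 with cells called by Cell Ranger's rule on UMI totals. They were also -0.0066 for Hsd17b7 and 0.0079 for Ebp with at most 5% mitochondrial UMIs, -0.00055 for Lss with at least 5000 UMIs per cell, -0.0012 for Srebf1, -0.023 for Scap, 0.099 for Sqle, -0.0025 for Acaca and 0.036 for Elovl6 with cells thinned to 5000 UMIs, 0.073 for Sqle without the deepest 5% of cells, -0.029 for Hsd17b7 and -0.040 for Acaca without cycling cells. Further ones were -0.038 for Lss, -0.11 for Hsd17b7 and 0.029 for Ebp without MHC class II cells, -0.021 for Lss, -0.10 for Hsd17b7 and -0.016 for Acaca with 10% free RNA removed, -0.0036 for Lss without neutrophil-marker cells. For these other changes the cause was not tested.

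With 1 library left out and no block, the lone library of a group was assumed to vary like the others. The counts ran from 0 to 3 members higher and from 0 to 7 lower, from 0 to 16 and from 0 to 6 of the other genes, and the members' median from -0.23 to 0.04. Members whose sign changed, none of them called with all libraries or where the sign changed, ran over -0.028 to 0.21 for Srebf1, -0.15 to 0.25 for Acat2, -0.14 to 0.023 for Hmgcs1, -0.17 to 0.052 for Ggps1, -0.45 to 0.39 for Sqle, -0.15 to 0.16 for Lss, -0.13 to 0.28 for Msmo1, -0.26 to 0.032 for Nsdhl, -0.27 to 0.28 for Hsd17b7, -0.11 to 0.11 for Ebp, -0.034 to 0.085 for Acaca, -0.16 to 0.37 for Fasn, -0.091 to 0.62 for Scd1, -0.32 to 0.62 for Scd2 and -0.60 to 0.15 for Elovl6. Inside these ranges the sign also differed at -0.010 for Srebf1, 0.044 for Sqle, -0.0060 for Lss and -0.015 for Acaca without non-efferocytic Experiment 1, at 0.055 for Ebp without efferocytic Experiment 1, at 0.022 for Sqle without non-efferocytic Experiment 2 and at -0.061 for Scd1 without efferocytic Experiment 2. Of 636 single-member values under alternatives with all 4 libraries, 534 kept direction and call, 27 lost a call, 26 gained one and 49 changed sign, 8 of these with a call on either side. Of 136 with 1 library left out, 78 kept both, 35 lost a call, 1 gained one and 22 changed sign.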
